A study of Mus musculus with 6 samples.

Results

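The genes described here are 33 mouse genes of glutamate signalling, taken by symbol from a list of receptor subunits, metabotropic receptors, membrane and vesicular transporters and 3 genes that share a name or a metabolic step with them. All 33 were found among the 21878 gene symbols of the expression table. The RNA came from HT22, an immortalized mouse hippocampal neuronal cell line, and was sequenced as the input fraction of an m6A immunoprecipitation experiment on mRNA. There were 2 groups of 3 libraries. The control group was not given aluminum. The study lists a medium-only control and a separate maltol control, the sequenced group is called control, and which of the 2 it was is not stated outright. The Al group received 120 µM aluminum maltolate, a soluble complex of aluminum with maltol, for 24 h. The Al libraries carry the letter M in their labels and were taken as the treated group. Both groups were the same line, so each value describes 1 immortalized population and not neurons of a hippocampus. The study describes the replicates as biological.

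Glutamate is the main excitatory transmitter of the hippocampus. AMPA, NMDA and kainate receptors are ligand-gated ion channels built of 4 subunits, metabotropic receptors act through G proteins, sodium-coupled SLC1 carriers take glutamate back into cells, and VGLUT carriers load it into synaptic vesicles. HT22 cells are widely used because extracellular glutamate kills them by blocking cystine uptake through the xCT antiporter and so depleting glutathione, and not through ionotropic receptors. The question of the comparison was which of these genes the line transcribes at all, and which of those differed after aluminum.

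The line held RNA of few of these genes. Of the 33, 5 had a mean of at least 1 FPKM (a read count scaled to gene length and to library size, so that levels of different genes can be set side by side), which are Grina, Slc1a4, Slc1a3, Glul and Grin3b. A further 4 lay between 0.1 and 1 FPKM (Grik2, Grik5, Grin2d and Grin3a), 23 were above 0 but under 0.1, and Slc1a6 was at 0 in all 6 libraries. A mean of at least 0.1 was thus reached by 27.3% of the members against 58.9% of all genes in the table, and a mean of at least 1 by 15.2% against 47.3%. With aluminum, Slc1a3 and Slc1a4 were much lower, Grin2d and Grik2 were moderately lower, and Grin3b was higher.

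The promoters of Slc1a3 and Slc1a4 are shown because these are the members whose level differed most. Each runs from 250 bases before to 50 bases after the start of the gene in RefSeq (build GRCm38.p6), and is written 5′ to 3′ on the gene's own strand. Capitals mark matches on either strand to 5 motifs, which are the TATA box (TATAAA), the CCAAT box (CCAAT), the GC box (GGGCGG), the E-box (CACGTG) and the core of the amino acid response element (TGATGNAA, with N any base). Overlapping matches share their capitals.
Slc1a3 promoter, chr15:8710758-8711057, minus strand: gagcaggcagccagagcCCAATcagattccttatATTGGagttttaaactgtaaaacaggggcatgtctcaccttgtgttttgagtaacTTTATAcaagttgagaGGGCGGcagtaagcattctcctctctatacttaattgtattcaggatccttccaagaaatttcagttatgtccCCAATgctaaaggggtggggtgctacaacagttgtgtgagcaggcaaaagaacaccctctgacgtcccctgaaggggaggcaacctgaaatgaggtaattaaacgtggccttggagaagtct
Slc1a4 promoter, chr11:20332664-20332963, minus strand: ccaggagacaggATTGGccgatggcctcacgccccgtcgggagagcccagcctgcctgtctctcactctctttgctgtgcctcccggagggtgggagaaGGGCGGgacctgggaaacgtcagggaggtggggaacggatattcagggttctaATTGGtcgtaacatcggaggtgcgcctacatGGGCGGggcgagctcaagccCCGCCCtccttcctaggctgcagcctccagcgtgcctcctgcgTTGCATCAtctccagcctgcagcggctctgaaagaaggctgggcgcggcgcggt

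The Slc1a3 window held 1 TATA box, 3 CCAAT boxes and 1 GC box. In the Slc1a4 window there were 2 CCAAT boxes, 3 GC boxes and 1 match to the amino acid response element core, the latter on the opposite strand and beginning 4 bases before the start. Of all 32851 promoters of this length, 13.6% held a TATA box, 37.4% a CCAAT box, 35.7% a GC box, 7.15% an E-box and 3.97% the amino acid response element core. A promoter was found for 23 of the 33 members. The response element core was in 2 of them, Slc1a4 and Grm7, the TATA box in 2, the CCAAT box in 6, the GC box in 16 and the E-box in 2. These matches are descriptions of letters and say nothing of whether a factor bound.

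**Figure D1:**
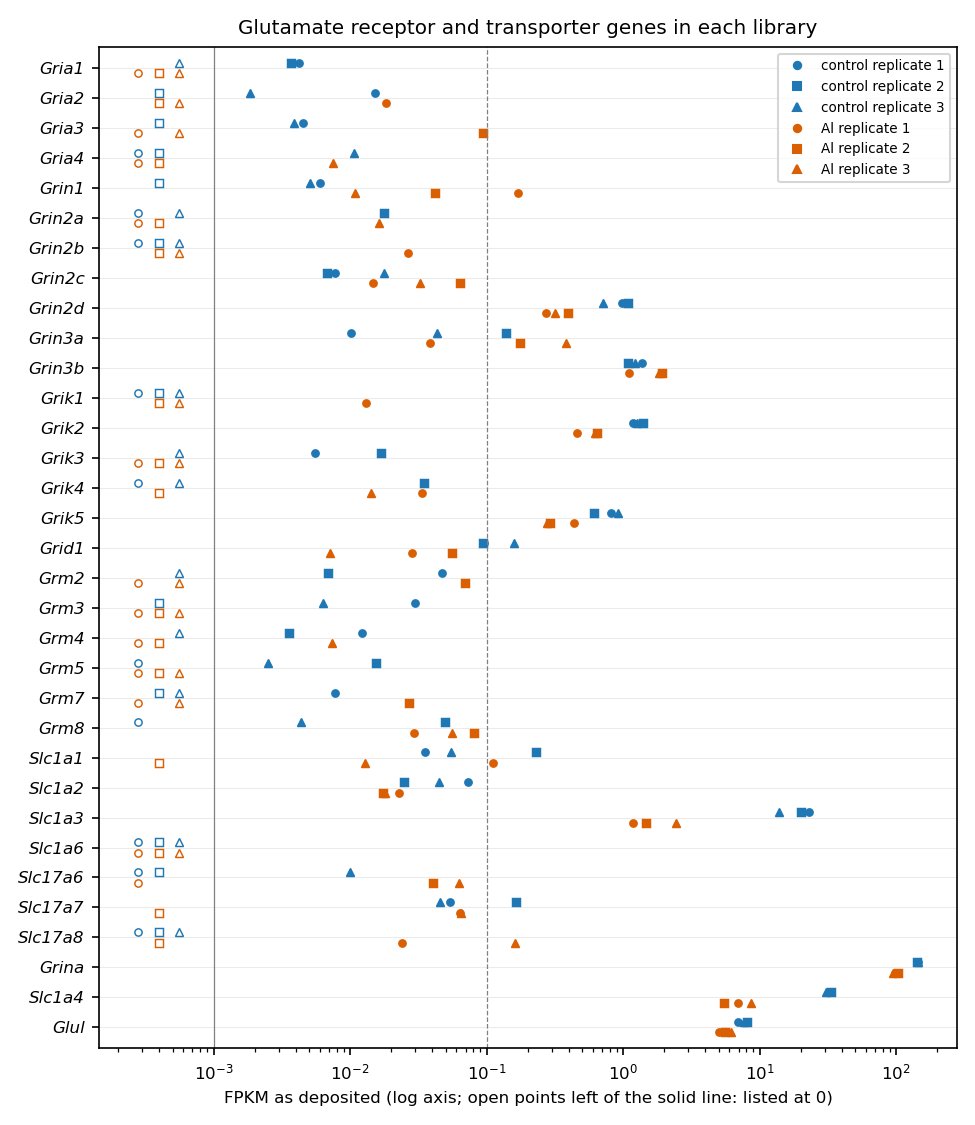
Level of each of the 33 members in each library, as deposited FPKM on a log axis, with control libraries in blue, Al libraries in orange and 1 marker shape per replicate. Open points left of the solid line are values listed at 0, and the dashed line is the minimum mean of 0.1 FPKM for a test: 9 members had a mean to its right, and Grina stood above all others.

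Depth differed between the groups. The whole reads behind the FPKM values summed to 37772036, 43096930 and 44223000 on genes in control replicates 1 to 3 and to 26490813, 21710384 and 20976697 in Al replicates 1 to 3. Scarce genes were therefore read less deeply with aluminum, and a library with 0 reads of a gene still leaves room for about 3. Fold changes below were computed on log2(FPKM divided by a size factor plus 0.1), which understates the change of low genes. They are log2 values of Al against control, and a gene is called where the limma P value was under 0.05 and the log2 fold change over 0.58 in size, the thresholds the study used. P values were adjusted by the Benjamini-Hochberg method across the 12889 tested genes.

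The labelled cell type was only thinly borne out by its markers. Of 12 neuronal marker genes, 11 were under 1 FPKM, Snap25 and Nefm, which encode a synaptic fusion protein and a neurofilament, were at 0 in all libraries, and Tubb3, a neuronal tubulin, was the one above. Divided by size factors, which put the libraries on one scale, the 12 summed to 4.69 to 4.87 FPKM in control and 3.28 to 5.36 in Al libraries, with overlap, and Tubb3 was not called (log2 fold change −0.19). Of 8 genes of excitatory hippocampal neurons, 7 were under 1 FPKM, Emx1 was at 0, and the sum on the same scale ran from 3.23 to 4.48 in control and from 3.14 to 3.70 with aluminum. Fibroblast markers were high: 6 of 7 had a mean of at least 1 FPKM, and they summed to 3033 to 4354 FPKM in control and 4842 to 6526 in Al libraries on that scale. Among astrocyte markers Aqp4 was at 0 and Gfap was at most 0.101 FPKM, while Sox9 and Gja1 exceeded 1, and the 7 summed to 35.0 to 38.8 FPKM in control and 51.3 to 66.9 in Al libraries. Of 7 oligodendrocyte markers 0 reached 1 FPKM, with sums of 0.171 to 0.372 in control and 0.496 to 1.39995 in Al libraries. Of 6 microglial markers Tmem119 alone did, P2ry12 was at 0, and the sum was 33.6 to 41.4 in control and 23.9 to 90.5 with aluminum.

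AMPA receptor subunits, the channels of fast excitatory transmission, were close to absent from the reads. All 4 genes (Gria1, Gria2, Gria3 and Gria4) had a mean under 0.1 FPKM, and together they took 1 to 10 reads in a control library and 1 to 24 in an Al library. Gria2, the subunit whose edited form limits calcium entry, had 7, 0 and 1 reads in the control replicates and 6, 0 and 0 in the Al replicates. The highest value came from 1 library, Al replicate 2, where Gria3 had 24 reads against 0 in the other Al libraries and at most 2 in control. Of 14 genes of receptor auxiliary subunits, which traffic and tune AMPA and kainate receptors, 11 were likewise under 0.1 FPKM with at most 16 reads in any library.

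NMDA receptors need Grin1, the obligatory subunit that binds glycine, together with glutamate-binding Grin2 subunits. Grin1 had 2, 0 and 2 reads in the control replicates and 40, 8 and 2 in the Al replicates, so its mean stayed under the level tested. In FPKM that was 0.00599, 0 and 0.00512 against 0.171, 0.0417 and 0.0108, and the groups did not overlap. Al replicate 3 had the same 2 reads as control replicates 1 and 3, and lay higher in FPKM only through its lower depth. Of all tested genes 68.1% did not overlap, on values divided by size factors. In the limma fit over all genes above 0 the log2 fold change of Grin1 was 0.76 (adjusted P 0.139), which was not called. Grin2a, Grin2b and Grin2c had at most 18 reads in any library. Grin2b, a main partner of Grin1 in the young forebrain, had 17 reads in Al replicate 1 and 0 in each of the others.

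Grin2d, a subunit typical of early development and interneurons, was the one glutamate-binding NMDA subunit that passed the minimum level, and it fell with aluminum. Its FPKM was 0.977, 1.08 and 0.711 in control replicates 1 to 3 and 0.272, 0.397 and 0.318 in Al replicates 1 to 3, from 1069 and 209 reads in all. The groups did not overlap. Its log2 fold change was −0.84 ± 0.27 (SE, n = 3 per group), with a limma adjusted P of 0.0227. The call was lost without control replicate 1 (log2 fold change −0.80, limma adjusted P 0.0858) or control replicate 2 (−0.74, 0.0991), and with a pseudocount of 1 (−0.35). Grin2d shares 643 exon bases with Gm45441, an antisense gene that is not in the table, and the strand setting of the counting was not given in the sources used here.

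Grin3b, a subunit that forms glycine-gated receptors, was the only member called higher, against 26.2% of all tested genes called higher. FPKM was 1.39, 1.09 and 1.22 in control and 1.097, 1.92 and 1.82 in Al replicates 1 to 3, and the groups overlapped as deposited because Al replicate 1 lay among the controls. After division by size factors the control values were 1.17, 0.904 and 1.04 and the Al values 1.37, 2.35 and 1.95, with no overlap. The log2 fold change was 0.78 ± 0.24 (SE, n = 3 per group), limma adjusted P 0.0177. It was 0.33 on FPKM as deposited, 0.052 on TPM and 0.49 with a pseudocount of 1, none of them called. The identity of these reads is uncertain: Grin3b (chr10:79970715-79977190) shares 1059 exon bases with Tmem259 on the other strand. Tmem259, named here for that overlap after its values were seen, was at 56.6 ± 1.59 FPKM in control and 16.5 ± 3.57 with aluminum (mean ± SD, n = 3), and was called lower (log2 fold change −1.31, limma adjusted P 3.9e-05).

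Grin3a, the other subunit of that kind, varied too much between replicates for a call. Its FPKM was 0.0101, 0.139 and 0.0432 in control and 0.0385, 0.176 and 0.383 in Al replicates, so it passed the minimum through the Al libraries. The log2 fold change of 0.97 had a 95% interval from −0.24 to 2.17 and a limma adjusted P of 0.142. Without Al replicate 1 it was called higher, at 1.48.

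Kainate receptor RNA was carried by Grik2 and Grik5, a low-affinity pore-forming subunit and a high-affinity partner that needs it. Grik1, Grik3 and Grik4 had at most 10 reads in any library. Grik2 (chr10:49094833-49788766) fell with aluminum, with FPKM of 1.17, 1.39 and 1.27 in control and 0.457, 0.639 and 0.617 in Al replicates and no overlap between the groups. Its log2 fold change was −0.61 ± 0.22 (SE, n = 3 per group), limma adjusted P 0.0365, which is close to the size threshold. The call was lost when the pseudocount was 1 (−0.31), under quantile normalization (−0.58), and without control replicate 2 (−0.57), control replicate 3 (−0.61) or Al replicate 1 (−0.51).

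Grik5 had FPKM of 0.813, 0.608 and 0.917 in control and 0.438, 0.290 and 0.276 in Al replicates. These deposited values did not overlap, whereas the values divided by size factors did, and Grik5 was not called (log2 fold change −0.61, 95% interval −1.28 to 0.057, limma adjusted P 0.0994). On FPKM as deposited and on TPM it was called lower, at −1.02 and −1.27. The estimate is almost that of Grik2, and the difference between them was not tested.

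Grid1, a delta receptor subunit that acts as a synaptic organizer, was under the minimum level but above 0 in every library. It had 24, 27 and 47 reads in control and 5, 8 and 1 in Al replicates, at 0.0955, 0.0942 and 0.160 FPKM and 0.0284, 0.0555 and 0.00717 FPKM. In a fit over all genes above 0 its log2 fold change was −0.54 (limma adjusted P 0.0889), which was not called. Grid1 held the most reads of any member under 0.1 FPKM.

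Metabotropic receptors were all under 0.1 FPKM. The 6 genes (Grm2, Grm3, Grm4, Grm5, Grm7 and Grm8) together took 4 to 30 reads in a control library and 8 to 27 in an Al library. Grm8, a presynaptic receptor that inhibits release, had the most, with 0, 22 and 2 reads in control and 8, 18 and 12 in Al replicates. Grm5, the postsynaptic receptor that couples to calcium release, had 0, 6 and 1 in control and 0 in each Al library.

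Over the 23 receptor genes the summed FPKM divided by size factor was 3.88, 3.77 and 3.72 in control and 3.29, 4.73 and 3.83 in Al replicates 1 to 3, so the groups overlapped with Grin3b counted in. On that scale the NMDA subunits, Grin3b among them, summed to 1.70 to 2.01 in control and 2.02 to 3.19 with aluminum. The kainate subunits summed to 1.68 to 1.86 and to 0.973 to 1.17. Of the sum, 91.5 to 94.7% in control and 84.2 to 85.8% with aluminum came from 4 genes, Grin2d, Grin3b, Grik2 and Grik5. Grin3b, whose read identity is uncertain, held 23.97 to 30.2% of the sum in control and 41.6 to 51.1% with aluminum. Outside these 4 genes the highest value was that of Grin3a in Al replicate 3, at 0.383 FPKM of a deposited sum of 3.57. Grin1 reached 6.48% in Al replicate 1 and Gria3 2.45% in Al replicate 2, the highest shares of Grin1 and Gria3.

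Among plasma membrane glutamate transporters Slc1a3 stood alone. Slc1a3 encodes GLAST (EAAT1), the sodium-coupled carrier best known from astrocytes and radial glia, and the gene lies on chr15:8634124-8710764 in build GRCm38. Its FPKM was 22.8, 20.1 and 13.8 in control replicates 1 to 3 and 1.19, 1.47 and 2.43 in Al replicates 1 to 3, so every Al library lay far under every control library. The reads behind these values were 3652, 3666 and 2588 in control and 133, 135 and 216 with aluminum. Divided by size factors the level was 15.9 ± 3.80 in control and 1.96 ± 0.582 with aluminum (mean ± SD, n = 3), and the fitted change was 7.79-fold lower. Its log2 fold change was −2.96 (95% interval −3.502 to −2.42), limma adjusted P 2.4e-05. Only 21 of the 12889 tested genes had a lower fold change, which is 0.163%.

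The spread among the controls was wide, with control replicate 3 the lowest. The same library was the lowest control for all 7 fibroblast markers, with Col1a1 at 743 FPKM against 1019 and 1207, Dcn at 3.77 FPKM against 11.7 and 13.4 in the other controls, Pdgfra at 8.498 against 14.9 and 17.004, and Lum at 0.162 against 1.09 and 1.48. Dcn, Lum and Pdgfra were also called lower with aluminum, at log2 fold changes of −1.64, −2.28 and −1.22, where Lum passed the minimum level only through the controls (mean 0.910 against 0.0393 FPKM). Col1a1 was called higher at 0.92, and Col1a2, Col3a1 and Vim were not called, at 0.47, 0.37 and 0.37. Their part in the Slc1a3 result was not tested. In RNA from a whole culture, fewer cells of a kind and less RNA per cell cannot be told apart. Without control replicate 3 Slc1a3 was still called, and over all 15 alternatives its log2 fold change ran from −3.72 to −2.50.

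The remaining carriers of this group were scarce. Slc1a1, the neuronal carrier EAAC1, had 5, 37 and 9 reads in control and 11, 0 and 1 in Al replicates. Slc1a2, the main glutamate carrier of adult astrocytes (GLT-1), had 36, 14 and 26 reads in control and 8, 5 and 5 in Al replicates. Slc1a6, a Purkinje cell carrier, had 0 reads in every library.

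The 3 vesicular transporters, which mark glutamatergic terminals, were all under 0.1 FPKM. Slc17a7 (VGLUT1) had 6, 21 and 6 reads in control and 5, 0 and 4 in Al replicates. Slc17a6 (VGLUT2) had at most 6 reads in any library. Slc17a8 (VGLUT3) had 0 in all control libraries and 3, 0 and 16 in the Al replicates, its highest value resting on 1 library.

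Across the 24 members under 0.1 FPKM, Slc1a6 included, a library held 66 to 168 reads in all, and 47 was the most for 1 gene in 1 library. Of these members 13 had at most 10 reads in every library, 11 were above 0 in at most 2 libraries, and 3 (Grin2c, Grid1 and Slc1a2) were above 0 in all 6. Fitted with limma without the level filter, 0 of the 23 that were above 0 were called, beside 20.4% of all 17688 genes called higher and 18.2% lower in that fit, and 2 (Grid1 and Grm8) had an unadjusted P under 0.05.

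Slc1a4 encodes ASCT1, a carrier of serine, alanine and other neutral amino acids that belongs to the glutamate transporter family by sequence but does not take up glutamate, and it fell with aluminum. The gene lies on chr11:20302180-20332713. FPKM was 32.4, 33.3 and 30.4 in control and 6.94, 5.48 and 8.64 in Al replicates, a gap far wider than the spread within either group. The log2 fold change was −1.71 (95% interval −2.01 to −1.42), which is 3.28-fold lower, with a limma adjusted P of 1.9e-05, and 3.5% of tested genes had a lower one. It was called under all 15 alternatives, between −2.49 and −1.57. Its promoter, printed above, holds the amino acid response element core, as does that of Grm7. Whether the core bears on the change was not tested.

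Slc1a5 (ASCT2, a glutamine carrier), which is no member but the nearest relative of Slc1a4, was at 72.2, 72.5 and 66.4 FPKM in control and 5.32, 6.47 and 9.80 in Al replicates. Its log2 fold change was −2.83 (limma adjusted P 6.44e-06). In the SLC1 family all 3 genes with a mean of at least 1 FPKM, Slc1a3, Slc1a4 and Slc1a5, were called lower, beside 24.4% of all tested genes, while the 3 others of the family measured here were under 0.1 FPKM.

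**Figure D2:**
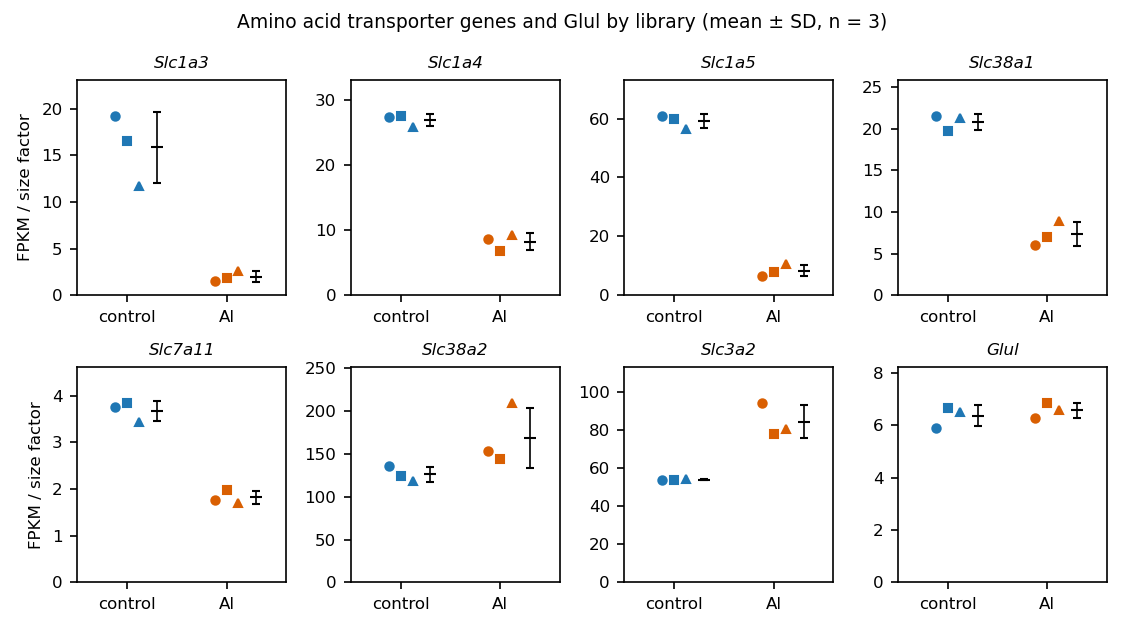
FPKM divided by size factor for 7 amino acid transporter genes and Glul, with control replicates in blue, Al replicates in orange, and mean ± SD (n = 3 per group) as black bars. Slc1a3, Slc1a4, Slc1a5, Slc38a1 and Slc7a11 lie lower in all 3 Al libraries, Slc38a2 and Slc3a2 lie higher, and the Glul groups overlap.

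Glul and Grina were not called. Glul encodes glutamine synthetase, which turns glutamate and ammonia into glutamine. Its FPKM was 6.99, 8.06 and 7.63 in control and 5.02, 5.57 and 6.14 in Al replicates. The deposited values did not overlap, but after division by size factors they ran from 5.90 to 6.67 in control and from 6.26 to 6.84 with aluminum. The log2 fold change was 0.046 with a 95% interval from −0.21 to 0.30 (limma adjusted P 0.737), and it was −0.43 on FPKM as deposited and −0.73 on TPM, the latter called lower. Glul has a pseudogene copy, Glns-ps1, that is 96.8% identical over 1126 bases, and how the counting split reads between them was not given in the sources used here.

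Grina, on chr15:76246764-76249904, is named after the NMDA receptor but encodes a membrane protein of the TMBIM family, known for its part in calcium handling and cell survival, and is no receptor subunit. It was the most abundant member by far: FPKM was 144, 142 and 143 in control and 98.1, 103 and 95.4 in Al replicates. It made up 68.2 to 71.8% of the members' summed FPKM in control and 81.9 to 86.3% with aluminum, and that sum divided by size factors was 170.2 to 178 FPKM in control and 125 to 147 FPKM in Al libraries. Divided by size factors Grina ran from 118 to 122 in control and from 102 to 127 in Al libraries. Its log2 fold change was −0.047 (95% interval −0.31 to 0.22, limma adjusted P 0.744). With TPM it was −0.83 and with quantile normalization −0.66, both called lower. Of the other 4 genes of the TMBIM family tested, Tmbim1 fell by 0.99 on the log2 scale (limma adjusted P 9.2e-05), and Tmbim4, Tmbim6 and Faim2 were not called, with log2 fold changes of 0.46, 0.50 and −0.26.

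Of the 9 members tested, 1 was thus called higher, 4 were called lower and 4 were not called, beside 26.2% of all 12889 genes called higher and 24.4% called lower. The groups did not overlap for 5 of the 9 on values divided by size factors, where 68.1% of all genes did not. The median log2 fold change of the tested members was −0.61, and that of all tested genes 0.03. Because the median of all genes itself moved to −0.43 on FPKM as deposited and to −0.72 on TPM, the changes were also set against it. Relative to that median Slc1a3 was at −2.99, −3.00 and −3.01, Slc1a4 at −1.74, −1.76 and −1.78, Grin3b at 0.75, 0.76 and 0.77 and Grina at −0.077, −0.10 and −0.12 with size factors, as deposited and with TPM, which differ by a factor per library. With quantile normalization the same differences were −2.75 for Slc1a3, −1.71 for Slc1a4, 1.05 for Grin3b and −0.63 for Grina. The exact permutation test of 1 gene, 3 libraries against 3, cannot go under a two-sided P of 0.1, and this was its value for Slc1a3, Slc1a4, Grin2d, Grik2 and Grin3b.

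**Figure D3:**
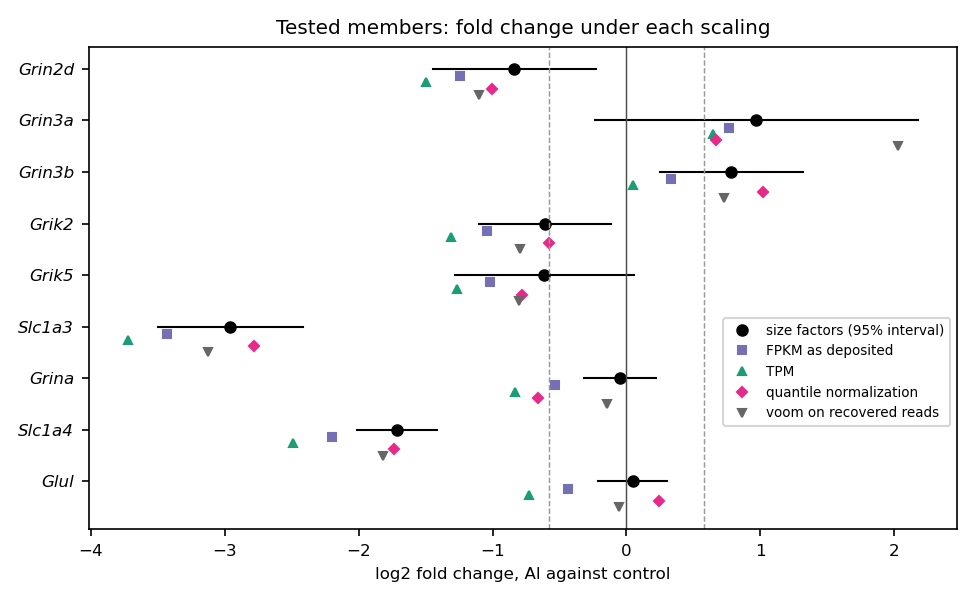
Log2 fold change of Al against control for the 9 tested members, with size factors (black, 95% interval) and under 4 other scalings; dashed lines mark the size threshold of 0.58. Slc1a3 and Slc1a4 lie beyond the threshold under every scaling shown, Grin3b lies within it on FPKM as deposited and on TPM, and Glul is on either side of 0.

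Genes that handle glutamate around these members were read from lists of 60 genes. Of them 35 were tested, 3 were called higher and 14 lower beside the 26.2% and 24.4% of all genes, and their median log2 fold change was −0.37 against 0.03 for all genes. In the postsynaptic scaffold list, 10 of 17 genes were tested, 4 of these were called lower and 0 higher, beside the same shares. They included Homer1, which tethers group I metabotropic receptors (log2 fold change −1.49), Pick1, a PDZ protein that binds AMPA receptor subunits (−1.35), and Dlgap2 (−1.44), which had 315 reads in control and 5 with aluminum and passed the minimum level only through the controls (mean 0.228 against 0.00692 FPKM). Of the auxiliary subunits Cacng7, an AMPA receptor regulatory protein, was called lower at −0.82, and Cnih2, which assists AMPA receptor export and was at 7.25 FPKM in control, was not called at 0.42.

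Of 9 tested enzymes of glutamate and glutamine metabolism, 2 were called higher, 2 lower and 5 were not called, beside 26.2% and 24.4% of all genes. Glud1 and Got2, the mitochondrial glutamate dehydrogenase and aspartate aminotransferase, rose by 1.04 and 0.82 on the log2 scale (limma adjusted P 0.0014 and 0.00362). Aldh18a1, which starts proline synthesis from glutamate, fell by 1.35, and Gclc, the catalytic subunit that commits glutamate to glutathione, fell by 0.88 (limma adjusted P 2.8e-05 and 0.00312). Asns, asparagine synthetase, was not called, at −0.31. On FPKM as deposited, on TPM and with quantile normalization, 0 of the 60 related genes were called higher, Glud1 and Got2 included.

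The cystine and glutamate antiporter xCT is made of the light chain Slc7a11 and the heavy chain Slc3a2, and these differed in direction. Slc7a11 was at 4.46, 4.65 and 4.03 FPKM in control and 1.42, 1.62 and 1.59 with aluminum, a log2 fold change of −0.98 (limma adjusted P 5.6e-04). Slc3a2, which also serves other light chains, had a log2 fold change of 0.64 (limma adjusted P 8.5e-04), with 64.1, 65.3 and 63.8 FPKM in control and 75.7, 63.7 and 75.3 with aluminum, and was not called on FPKM as deposited, on TPM or with quantile normalization. Of the glutamine carriers, Slc38a1 fell by 1.52 on the log2 scale and Slc38a2 was not called at 0.40. The mitochondrial glutamate carriers Slc25a22, Slc25a12 and Slc25a13 were called lower at −0.85, −0.68 and −0.68. In this list of 10 transport genes 8 were tested, of which 1 was called higher, 5 lower and 2 were not called. The shares over all tested genes were 26.2% higher and 24.4% lower.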

How the data were processed

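Members, gene lists and thresholds were chosen with earlier results of these data known. The authors deposited FPKM per gene symbol and library, and per the labels and methods reads were cleaned, aligned with HISAT2 and counted. The sources disagree on trimming tool and build (GRCm38 in the methods, GRCm39 in the submitters' processing notes), so coordinates here are from GENCODE and RefSeq on GRCm38, not from the table. Library preparation was strand-specific, but the strand setting of counting was not given in the sources used here. Each FPKM value is a whole number of reads times a step set by gene and library. Whole reads were set for the 17688 genes above 0 from the largest such step that made all values of a gene whole. That they are whole is therefore no check of the recovery. Of these genes 1556, 9 members among them, had a common factor set from the exon length, so their read numbers are less sure. The factor was 17 for Grin2b, whose 17 reads rest on it wholly. It was 2 for Gria3, Grin1, Grin2a, Grik1, Grik4, Grm7, Grm8 and Slc17a6. The libraries labelled M were taken as Al because the study's supplementary tables list them under that name.

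FPKM were divided by median-of-ratios size factors and tested as log2(value + 0.1) with limma 3.58.1 (R 4.3.3, lmFit and eBayes with trend) for genes with a mean of at least 0.1 FPKM. Both steps were tested on simulated data. The alternatives were other scalings, pseudocounts (0.01 and 1) and level filters, an adjusted P threshold, voom on recovered reads, a replicate block and leaving out each library. Named related genes were, per list, up to 3 called genes of largest change with a mean of at least 1 FPKM, plus Slc1a5 and Slc7a11, and the others named (Got2, Dlgap2, Tmbim4, Tmbim6, Faim2, Cnih2, Asns, Slc3a2, Slc38a2, Slc25a12 and Slc25a13) were chosen after their values were seen. Some genes of the lists are counted but not reported here by name. Overlaps and near-identical copies (at least 150 bases at 95% identity) were read from GENCODE transcripts.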

Additional observations from a re-analysis of the deposited data

How the results depend on the processing

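Slc1a3 and Slc1a4 were called lower under all 15 alternatives. With FPKM as deposited, 0 members were called higher, and over all genes 1805 were called higher and 5417 lower. TPM gave 0 members higher and 7 lower, and 1200 and 6843 of all genes. Of the related genes, 0 were higher and 23 lower under each of these scalings, and 0 were higher with quantile normalization. A pseudocount of 1 left 0 members higher and 2 lower, a minimum mean of 1 FPKM left 2 lower, and testing every gene above 0 gave 7 related genes higher. Leaving out 1 library at a time, 1 to 2 members were called higher (2 without Al replicate 1, with Grin3a) and 2 to 4 lower (2 without control replicate 2). Glul reversed to −0.43 on FPKM as deposited, −0.73 on TPM, −0.057 with voom on recovered reads and −0.016 without control replicate 1 (range −0.016 to 0.084 leaving out 1 library), and Grina to 0.059 without Al replicate 3 (range −0.099 to 0.059). The cause was not tested, except that a level filter or pseudocount acts on low genes by construction.

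Same-numbered libraries showed no shared deviation, since their deviations from the group means correlated at −0.03, −0.03 and −0.07. These values cannot tell whether the cultures were run as pairs. With the replicate block 1 member was called higher and 4 lower, and 3352 and 3123 of all genes, so the block changed no call count by over 1.5 times. Without Al replicate 1, Grik5 was also called lower, at −0.82.

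Depth limits the 24 members under 0.1 FPKM: the Al libraries held 20976697 to 26490813 reads, and reads that stand in 1 library (24 for Gria3, 17 for Grin2b) cannot be told from real differences between replicates.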
